A study of Arabidopsis thaliana with 48 samples.

Results

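CORONA (CNA; ATHB-15, AT1G52150) is a class III homeodomain leucine-zipper (HD-ZIPIII) transcription factor of Arabidopsis, and the comparison described here is the response of seedlings to induction of CNA-SDdelta set against their response to induction of CNA. The members are the 12 libraries of 4 groups, chosen by genotype and treatment among the 48 libraries of the study: CNA induced, CNA mock, CNA-SDdelta induced and CNA-SDdelta mock, with 3 biological replicates each. The main quantity is the interaction, that is the CNA-SDdelta response (induced minus mock) minus the CNA response on the log2 scale. A negative value means that the gene rose less, or fell more, in the CNA-SDdelta line. Since the mock groups of both lines were close, the induced groups were also set directly against each other.

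The study induced HD-ZIPIII factors and chimeric CNA constructs in 8 lines to find the genes they regulate. T2 seedlings of each line grew under long days at constant temperature, were sprayed at 9 days of age on agarose plates with 50 µM β-estradiol in a solution of DMSO and the surfactant Silwet L-77, and were collected whole 24 h later at 10 days. Mock groups of the same line and age received the DMSO and surfactant solution without β-estradiol, and every group, mocks included, carried the construct of its line. The suffix SDdelta is not spelled out in the labels and is read here as loss of the START domain. No line without a construct was analysed here, the labels name neither the promoter nor the number of transgenic lines behind a genotype, and the construct and the line that carries it cannot be told apart.

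HD-ZIPIII proteins carry a homeodomain and leucine zipper for DNA binding and pairing, followed by a START domain, a fold known for binding lipids, and they pattern the adaxial side of leaves, the vasculature and the meristem. Their transcripts are cleaved by microRNA165 and microRNA166. Direct targets include the LITTLE ZIPPER (ZPR) genes, which encode small leucine-zipper proteins that pair with HD-ZIPIII proteins and block their binding to DNA, a negative feedback.

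RNA was measured with QuantSeq 3′ libraries, which count the 3′ end of polyadenylated transcripts, so long and short transcripts are counted alike and the data do not show whether the START-coding exons were present. Totals in the 12 libraries ran from 2812517 counts (CNA induced replicate 2) to 10980893 (CNA-SDdelta mock replicate 1). Levels are given as CPM, counts scaled to a total of 1000000 per library after TMM normalisation, and 3 counts, taken as the floor, were worth 0.27 to 1.2 CPM. Errors of levels are SD over 3 libraries and errors of log2 differences are standard errors. Differences were tested with edgeR's quasi-likelihood test over 18909 genes, and a gene is called where its Benjamini-Hochberg adjusted p is below 0.05. The biological coefficient of variation was 60.9% in the fit on all 48 libraries, which gave the calls, and 56.5% within these 12 libraries. Modest differences therefore often missed the threshold. In whole seedlings, fewer cells of a type and less RNA per cell cannot be told apart.

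The promoter of ZPR1 is shown because this LITTLE ZIPPER gene had the smallest p of the interaction. The window runs from 250 bases before to 50 bases after the annotated start (RefSeq, TAIR10.1), at chr2:18734292-18734591 on the minus strand.
ZPR1: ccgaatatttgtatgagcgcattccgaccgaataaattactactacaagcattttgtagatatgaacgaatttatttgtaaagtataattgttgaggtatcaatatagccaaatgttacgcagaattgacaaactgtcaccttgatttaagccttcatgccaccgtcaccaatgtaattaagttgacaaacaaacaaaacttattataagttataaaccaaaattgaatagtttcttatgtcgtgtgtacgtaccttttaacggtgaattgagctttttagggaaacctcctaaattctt

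The induced transcription factor itself was higher after induction of CNA. ATHB-15 CPM was 19.2, 13.6 and 14.8 in CNA mock and 55.6, 47.0 and 73.9 in CNA induced libraries, a log2 change of 1.89 ± 0.42 (adjusted p = 0.00134). In the CNA-SDdelta line it was 10.8, 8.46 and 16.6 in mock and 34.9 and 18.3 in 2 of the 3 induced libraries, the third lying between the highest mock and 18.3, a log2 change of 0.99 ± 0.42 that did not pass the test (adjusted p = 0.216). The ranges of mock and induced libraries did not overlap in either line, and all 3 CNA induced libraries were above the highest CNA-SDdelta induced library. The interaction was -0.90 ± 0.59 (adjusted p = 0.762), and induced against induced was -1.32 ± 0.42 (adjusted p = 0.150). Neither passed the threshold after adjustment over all genes. The difference between the induced groups had an unadjusted p under 0.05 in the same edgeR test. These values do not show that the induced levels of the lines were alike. The ATHB-15 counts join the endogenous transcript with any construct transcript that ends in the same 3′ sequence.

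The other HD-ZIPIII genes, PHB, PHV, HB-8 and REV, were called in none of the 5 comparisons. PHB, which the study also induced in other lines, had mean CPM of 12.9 ± 2.2 and 13.6 ± 8.8 in CNA mock and induced libraries and 10.6 ± 7.7 and 15.6 ± 3.7 in CNA-SDdelta mock and induced libraries. REV was near the floor, with means between 1.05 and 4.44 CPM in the 4 groups.

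Of 4 LITTLE ZIPPER genes 3 were tested, and ZPR1 and ZPR4 rose strongly in the CNA line and were not called after induction of CNA-SDdelta. ZPR1 (AT2G45450) was at 46.5, 30.3 and 23.4 CPM in CNA mock libraries and at 505, 233 and 655 CPM in CNA induced libraries. In the CNA-SDdelta line it was at 22.3, 16.9 and 17.5 CPM in mock and at 20.6, 21.7 and 22.1 CPM in induced libraries. The 3 CNA induced libraries thus stood far above the other 9, while CNA-SDdelta induced values lay within the range of their own mocks. The log2 change was 3.79 ± 0.33 (adjusted p = 2.49e-13) in the CNA line and 0.18 ± 0.31 (adjusted p = 0.879) in the CNA-SDdelta line. The interaction was -3.61 ± 0.44 (adjusted p = 4.89e-07).

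ZPR4 (AT2G36307) was at 3.69, 8.77 and 4.94 CPM in CNA mock and at 84.3, 69.5 and 47.2 CPM in CNA induced libraries. It was at 1.54, 6.39 and 9.50 CPM in CNA-SDdelta mock and at 1.96, 4.31 and 4.81 CPM in CNA-SDdelta induced libraries. Again the CNA induced libraries did not overlap any other group, and the CNA-SDdelta groups overlapped. The changes were 3.52 ± 0.49 (adjusted p = 3.10e-07) and -0.56 ± 0.51 (adjusted p = 0.707), and the interaction was -4.09 ± 0.70 (adjusted p = 0.00171). ZPR3 was low, at 6.61, 17.8 and 1.68 CPM in CNA induced and 2.57, 0 and 5.02 CPM in CNA-SDdelta induced libraries, and its interaction of -1.44 ± 1.33 did not pass the test (adjusted p = 0.880). ZPR2 did not pass the filter on low counts.

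Levels of both genes in the other lines give a background. The other lines, here and below, are all 7 lines apart from CNA-SDdelta, so they include CNA itself and PHB-SDdelta. The lowest induced ZPR1 value among them, 233 CPM, was that of CNA induced replicate 2. For ZPR1 the 21 induced libraries of the other 7 lines ranged from 233 to 1297 CPM with a median of 581, all above the 22.1 CPM that was the highest value in CNA-SDdelta induced libraries. Their 21 mock libraries ranged from 18.8 to 99.1 CPM. For ZPR4 the same induced libraries ranged from 10.9 to 383 CPM, against at most 4.81 CPM in the CNA-SDdelta induced libraries.

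**Figure D1:**
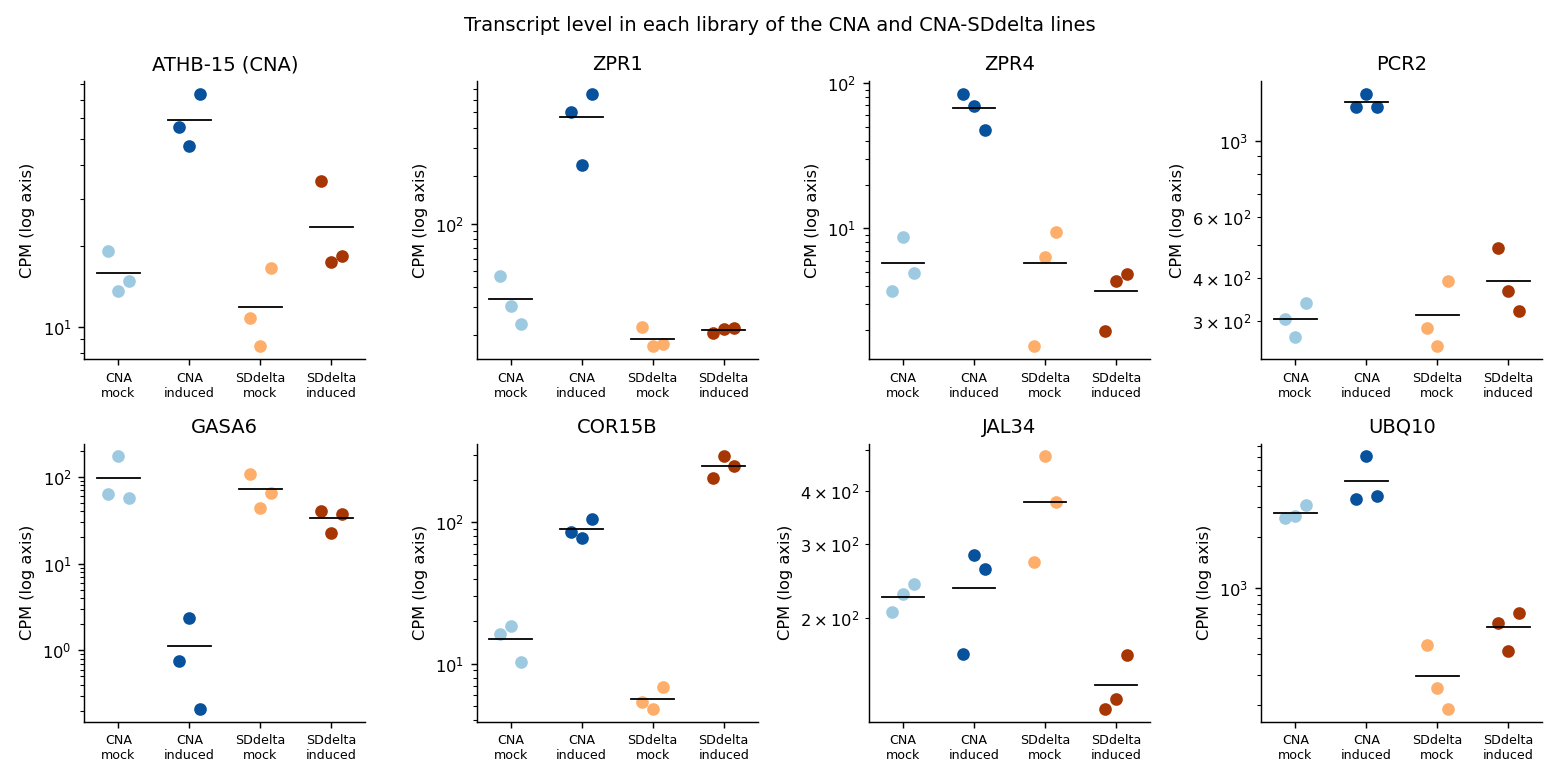
CPM (log axis) of the genes named in the panels, by group, with 1 point per library and the mean of 3 as a line. ZPR1 and ZPR4 are high in the 3 CNA induced libraries alone, at 233 to 655 and 47.2 to 84.3 CPM, while CNA-SDdelta induced libraries lie at 20.6 to 22.1 and 1.96 to 4.81 CPM.

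Across all genes the interaction called 20 of 18909, or 0.106%, with 8 positive (0.0423%) and 12 negative (0.0635%). At an unadjusted p under 0.05 there were 1510 genes, or 7.99%. Induction of CNA called 1514 genes (8.01%), 766 higher (4.05%) and 748 lower (3.96%), and 20.1% had an unadjusted p under 0.05. Induction of CNA-SDdelta called 908 genes (4.80%), 512 higher (2.71%) and 396 lower (2.09%), and 15.1% had an unadjusted p under 0.05. These counts are not a test of the difference, which is the interaction. Of the 20 genes 9 were called higher after CNA and not called after CNA-SDdelta, 5 were called lower after CNA and not called after CNA-SDdelta, 2 were called lower after CNA-SDdelta alone, and 1 was called higher after CNA-SDdelta alone. In 1 gene both changes were called higher, in 1 the CNA change was called higher and the CNA-SDdelta change lower, and in 1 the reverse held.

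**Figure D2:**
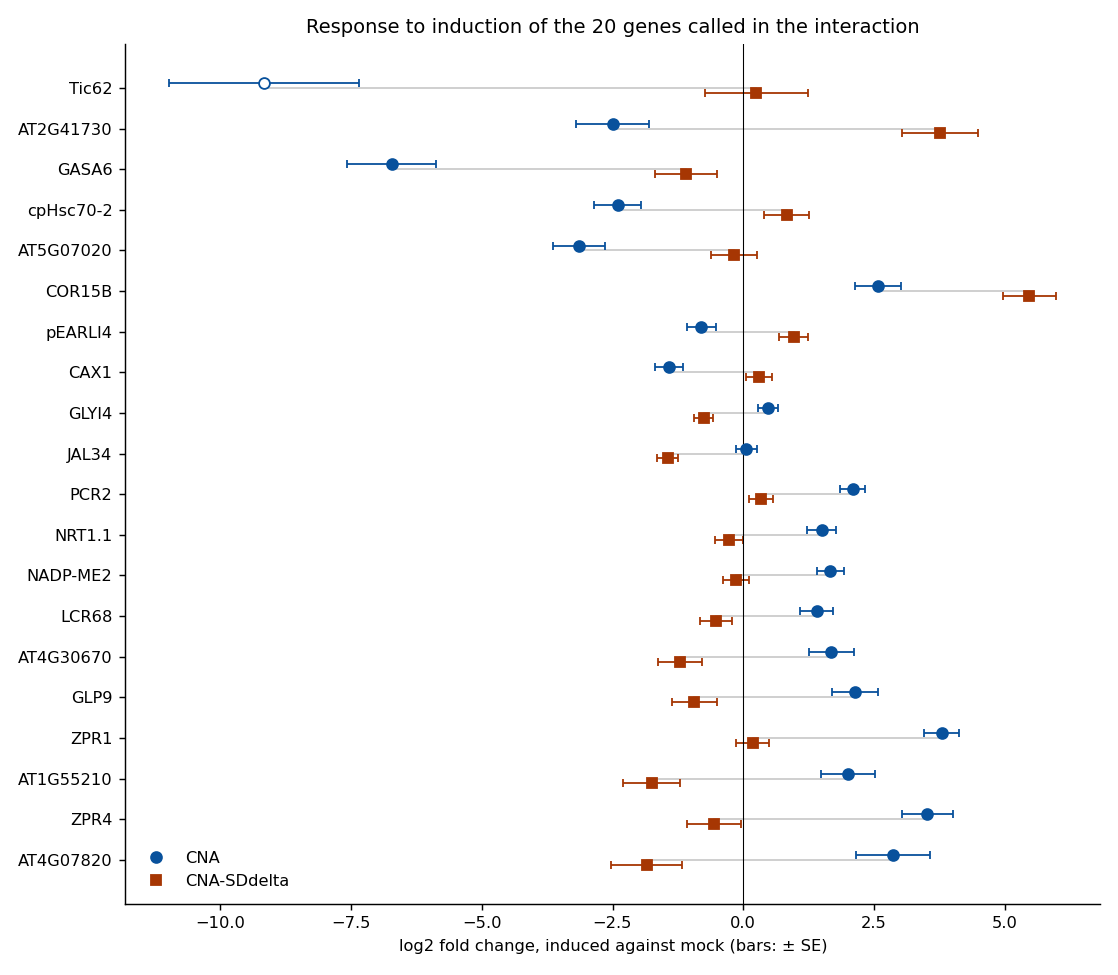
Log2 change (induced minus mock, with standard error) in the CNA line and in the CNA-SDdelta line for the 20 genes called in the interaction, 1 row per gene; an open marker stands for a group with all libraries at 0 counts, whose fitted value is no bound. ZPR1 and ZPR4 sit at 3.79 and 3.52 in the CNA line and at 0.18 and -0.56 in the CNA-SDdelta line.

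Among the genes that rose after CNA and were not called after CNA-SDdelta, PCR2, which encodes a membrane protein of zinc and cadmium resistance, was the most abundant. It was at 305, 270 and 338 CPM in CNA mock and at 1254, 1366 and 1252 CPM in CNA induced libraries. In the CNA-SDdelta line it was at 288, 254 and 393 CPM in mock and at 490, 367 and 322 CPM in induced libraries. The CNA induced libraries overlapped no other group, and the CNA-SDdelta groups overlapped each other. The changes were 2.09 ± 0.24 (adjusted p = 1.55e-09) and 0.34 ± 0.23 (adjusted p = 0.558), with an interaction of -1.75 ± 0.33 (adjusted p = 0.00555). Without CNA-SDdelta mock replicate 3 the adjusted p of the interaction was 0.0538. In the 21 induced libraries of the other lines, CNA included, PCR2 ranged from 273 to 1366 CPM with a median of 560. The CNA-SDdelta induced libraries lay within that range, and its highest value was that of CNA induced replicate 2.

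NADP-ME2, a cytosolic malic enzyme, was at 37.4, 33.1 and 38.7 CPM in CNA mock and at 107, 108 and 131 CPM in CNA induced libraries, against 54.8, 81.3 and 60.6 CPM and 67.3, 52.7 and 58.6 CPM in the CNA-SDdelta mock and induced libraries. Its interaction was -1.80 ± 0.36 (adjusted p = 0.0122). The nitrate transporter gene NRT1.1 was at 36.3, 37.6 and 26.8 CPM in CNA mock and 80.6, 128 and 78.3 CPM in CNA induced libraries, while the 6 CNA-SDdelta libraries lay between 32.9 and 42.9 CPM. Its interaction was -1.77 ± 0.39 (adjusted p = 0.0337). For both genes the CNA induced libraries were higher than all other libraries. The CNA-SDdelta groups overlapped for NADP-ME2, and for NRT1.1 the induced libraries lay just below their mocks.

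GLP9, a germin-like protein gene of the cell wall, was at 27.8 ± 13 CPM in CNA mock and at 146, 127 and 90.9 CPM in CNA induced libraries. In CNA-SDdelta libraries it was at 31.8, 29.4 and 95.7 CPM in mock and at 41.3, 9.64 and 30.2 CPM in induced libraries, so that 1 mock library lay above the lowest CNA induced library. Its interaction was -3.07 ± 0.62 (adjusted p = 0.0122), and -2.29 with an adjusted p of 0.202 without that library, CNA-SDdelta mock replicate 3. LCR68, a defensin-like gene, had means of 101 and 266 CPM in CNA mock and induced libraries and 112 and 77.9 CPM in the CNA-SDdelta groups, with an interaction of -1.92 ± 0.43 (adjusted p = 0.0380). AT4G07820 and AT4G30670 had interactions of -4.71 ± 0.98 and -2.89 ± 0.60 (both adjusted p = 0.0182); both had higher means in CNA-SDdelta mock than in CNA mock, 26.4 against 5.71 and 37.4 against 16.5 CPM, with mock against mock not called (adjusted p = 0.569 and 0.795).

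GASA6 was 1 of 5 genes that fell after CNA and were not called after CNA-SDdelta. It encodes a small cysteine-rich peptide of the gibberellin-regulated GASA family. It was at 63.0, 172 and 57.2 CPM in CNA mock and at 0.752, 2.37 and 0.210 CPM in CNA induced libraries. In the CNA-SDdelta line it was at 107, 43.4 and 65.4 CPM in mock and at 40.7, 22.6 and 37.5 CPM in induced libraries. The groups of each line did not overlap, and every CNA induced library was below every CNA-SDdelta induced library. The changes were -6.72 ± 0.85 (adjusted p = 2.55e-08) and -1.10 ± 0.59 (adjusted p = 0.382), with an interaction of 5.62 ± 1.03 (adjusted p = 0.00477). GASA6 overlaps the annotated gene AT1G74675, so its counts are uncertain to that extent, and in the 21 induced libraries of the other lines it ranged from 0.210 to 110 CPM.

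CAX1, a vacuolar calcium/proton exchanger gene, was at 204, 188 and 295 CPM in CNA mock and at 83.1, 94.8 and 78.5 CPM in CNA induced libraries, and at 147, 122 and 107 CPM and 142, 159 and 164 CPM in the CNA-SDdelta groups. The fall in the CNA line was without overlap, and the CNA-SDdelta groups overlapped; the interaction was 1.73 ± 0.36 (adjusted p = 0.0206). The plastid Hsp70 gene cpHsc70-2 was at 37.8, 28.5 and 54.3 CPM in CNA mock and at 12.9, 4.34 and 4.83 CPM in CNA induced libraries, but was already low in CNA-SDdelta mock, at 14.4, 8.94 and 7.29 CPM, against 10.1, 20.5 and 24.3 CPM after induction. Its interaction was 3.23 ± 0.62 (adjusted p = 0.00687), mock against mock was -1.96 ± 0.44 (adjusted p = 0.0539), and without CNA-SDdelta mock replicate 3 the interaction had an adjusted p of 0.0538. It overlaps AT5G49920.

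AT5G07020 had means of 50.1 and 5.34 CPM in CNA mock and induced libraries and 32.4 and 28.8 CPM in the CNA-SDdelta groups, with an interaction of 2.97 ± 0.65 (adjusted p = 0.0316). Tic62, a chloroplast protein that binds ferredoxin-NADP reductase, was at 12.8, 12.8 and 3.80 CPM in CNA mock and at 0 counts in all 3 CNA induced libraries, which is at least a 13.0-fold fall against the floor of 3 counts per library. It was at 6.43, 3.03 and 4.86 CPM in CNA-SDdelta mock and 1.96, 6.77 and 8.29 CPM in CNA-SDdelta induced libraries, the latter at least 7.52-fold higher than CNA induced. Its interaction was called with an adjusted p of 0.0423.

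The remaining 6 genes moved in other ways. AT2G41730 was at 26.3, 11.6 and 5.51 CPM in CNA mock and 1.65, 1.18 and 4.62 CPM in CNA induced libraries. In the CNA-SDdelta line it was at 1.99, 0.958 and 1.11 CPM in mock and 20.1, 20.3 and 17.7 CPM in induced libraries. It thus fell by 2.50 ± 0.69 on the log2 scale in the CNA line (adjusted p = 0.0123) and rose by 3.76 ± 0.72 in the CNA-SDdelta line (adjusted p = 0.000229), with no overlap of groups in either. It was the single one of the 20 also called between the mock groups, at -3.36 ± 0.71 (adjusted p = 0.0371), and its interaction was 6.27 ± 1.00 (adjusted p = 0.000454). AT1G55210 moved the other way: means of 6.84 and 27.6 CPM in the CNA groups and 8.37 and 2.41 CPM in the CNA-SDdelta groups, with changes of 2.00 ± 0.52 (adjusted p = 0.00771) and -1.75 ± 0.54 (adjusted p = 0.0443).

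COR15B, a cold-regulated protein of the chloroplast stroma, rose in both lines and more after CNA-SDdelta. It was at 16.3, 18.4 and 10.3 CPM in CNA mock and 85.5, 77.8 and 106 CPM in CNA induced libraries, and at 5.34, 4.79 and 6.85 CPM in CNA-SDdelta mock and 205, 292 and 251 CPM in CNA-SDdelta induced libraries. No group overlapped another. The interaction lost its call when any of 8 of the 12 libraries was dropped, with an adjusted p of at most 0.0997 (without CNA mock replicate 2). The changes were 2.58 ± 0.44 (adjusted p = 1.93e-05) and 5.47 ± 0.51 (adjusted p = 3.18e-12), and the interaction was 2.89 ± 0.61 (adjusted p = 0.0213). The 21 induced libraries of the other lines ranged from 9.34 to 117 CPM, below all 3 CNA-SDdelta induced libraries. COR15A went the other way, with changes of 1.25 (adjusted p = 0.0586) after CNA and 0.19 (adjusted p = 0.910) after CNA-SDdelta. Its interaction was -1.05 (adjusted p = 0.697), and its means were 589 CPM in CNA mock and 1431 CPM in CNA-SDdelta mock libraries. Whether reads were split between COR15A and COR15B was not tested. COR15B overlaps AT2G42520.

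JAL34, a jacalin-type lectin gene, was at 207, 228 and 241 CPM in CNA mock and 165, 282 and 261 CPM in CNA induced libraries, which overlapped. In the CNA-SDdelta line it was at 271, 482 and 376 CPM in mock and 122, 129 and 164 CPM in induced libraries, which did not, a change of -1.44 ± 0.20 (adjusted p = 6.58e-07) and an interaction of -1.50 ± 0.28 (adjusted p = 0.00555). Without CNA-SDdelta mock replicate 2 that adjusted p was 0.0801, and JAL34 overlaps AT3G16470. GLYI4, a glyoxalase I gene, fell after CNA-SDdelta from a mean of 679 to 400 CPM (log2 change -0.76 ± 0.19, adjusted p = 0.00855) and had means of 407 and 563 CPM in the CNA groups. pEARLI4 rose after CNA-SDdelta from 46.5 to 90.8 CPM (0.96 ± 0.27, adjusted p = 0.0231) and had means of 81.5 and 46.5 CPM in the CNA groups. Their interactions were -1.23 ± 0.27 (adjusted p = 0.0361) and 1.77 ± 0.39 (adjusted p = 0.0317).

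How firmly the 20 calls stand differed. Leaving out each of the 12 libraries in turn, 4 genes were called in all 12 fits (ZPR1, ZPR4, AT2G41730 and GASA6) and 7 in at least 11, the others being PCR2, JAL34 and cpHsc70-2. Their highest adjusted p values in those fits were 2.41e-05, 0.0335, 0.00656 and 0.0369 for the first 4. COR15B, AT5G07020, NRT1.1, GLYI4, LCR68, Tic62, pEARLI4 and AT4G07820 were called in fewer than 6 of the 12 fits. Their highest adjusted p was 0.0997 for COR15B and 0.119 for AT4G07820 (both without CNA mock replicate 2), 0.166 for NRT1.1 and 0.168 for LCR68 (both without CNA mock replicate 3), and 0.136 for Tic62 (without CNA-SDdelta mock replicate 2). It was 0.152 for AT5G07020 and 0.202 for GLYI4 (both without CNA-SDdelta mock replicate 3), and 0.186 for pEARLI4 (without CNA-SDdelta induced replicate 2). NADP-ME2 and AT1G55210 reached 0.0953 and 0.114, without CNA-SDdelta mock replicates 2 and 3, AT4G30670 reached 0.114 without CNA mock replicate 2, GLP9 reached 0.202 without CNA-SDdelta mock replicate 3, and CAX1 reached 0.130 without CNA mock replicate 3. Under settings that kept every library 10 of the 20 lost their call at least once: ZPR4, cpHsc70-2, NADP-ME2, AT1G55210, COR15B, AT5G07020, pEARLI4, NRT1.1, GLYI4 and Tic62. For ZPR4 this was with counts thinned to the smallest total (adjusted p = 0.0679), while ZPR1, AT2G41730 and GASA6 were called under every setting tried. The direction of all 20 was the same in every one of these fits.

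Before the direct comparison of the induced groups, the mock groups were compared. Mock against mock called 10 genes, or 0.0529%, 2 higher (0.0106%) and 8 lower (0.0423%) in the CNA-SDdelta line. An unadjusted p under 0.05 was found for 4.75% of genes, and the median difference over all genes was -0.01. The polyubiquitin gene UBQ10 had the smallest p. It was at 2602, 2653 and 3084 CPM in CNA mock and 454, 252 and 189 CPM in CNA-SDdelta mock libraries, a log2 difference of -3.22 ± 0.24 (adjusted p = 3.64e-15). After induction it was at 3388, 6039 and 3502 CPM against 611, 421 and 709 CPM, a difference of -2.89 ± 0.23 (adjusted p = 9.31e-14), and its interaction was 0.33 (adjusted p = 0.890). All 6 CNA-SDdelta libraries lay below the 893 CPM that was the lowest of the 42 libraries of the other lines. UBQ10 has near-identical polyubiquitin relatives among which reads could be split, so its level is uncertain. UBQ14 and UBQ4 were higher in CNA-SDdelta induced libraries, at 502 to 678 and 185 to 233 CPM, than in the 21 induced libraries of the other lines, which reached 495 and 157 CPM (UBQ4 was not called induced against induced, adjusted p = 0.133), while UBQ11 at 1535 to 1808 CPM lay within their range.

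The chaperone genes HSC70-1 and HSP81-3, of the Hsp70 and Hsp90 families, were among the 8 genes called lower in CNA-SDdelta mock, at -0.95 and -1.50, as was AT3G09440 at -1.73. Without CNA-SDdelta mock replicate 3 their adjusted p was 0.277, 0.501 and 0.907, and each call was also lost without some other mock libraries. The summed CPM of the 14 tested genes of a heat-shock list was 977 ± 183 in CNA mock and 596, 229 and 234 in CNA-SDdelta mock libraries, and none of the 14 was called between the mocks, with 7 at an unadjusted p under 0.05 and 3 called by DESeq2. After induction the sums were 245 ± 34 and 205 ± 70 CPM. Of these 14 genes 7 were called lower after CNA and 1 after CNA-SDdelta, against 3.96% and 2.09% of all genes. Without CNA induced replicate 1 or 2 or CNA mock replicate 2 or 3 the count of 7 was 3, 2, 4 and 3. In the interaction none was called by edgeR or DESeq2, with 2 at an unadjusted p under 0.05. The standing mock difference and the smaller fall moved together, and its part in the list's values was not tested.

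Induced against induced, edgeR called 104 genes, or 0.550%, with 44 higher (0.233%) and 60 lower (0.317%) in CNA-SDdelta induced libraries, and 2079 genes, or 11.0%, had an unadjusted p under 0.05. Of the 104, 12 were also called in the interaction and 3 between the mocks, and for 4 the mock difference was larger than the induced difference. A total of 20 of the 104 belonged to at least 1 of 42 lists of pathway, family and cell type genes, and 84 to none. Because both comparisons use the same induced libraries, their values are given side by side below. Counts of called list members below are to be read against the shares over all genes. These were 0.233% higher and 0.317% lower induced against induced. After CNA they were 4.05% higher and 3.96% lower, and after CNA-SDdelta 2.71% higher and 2.09% lower.

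**Figure D3:**
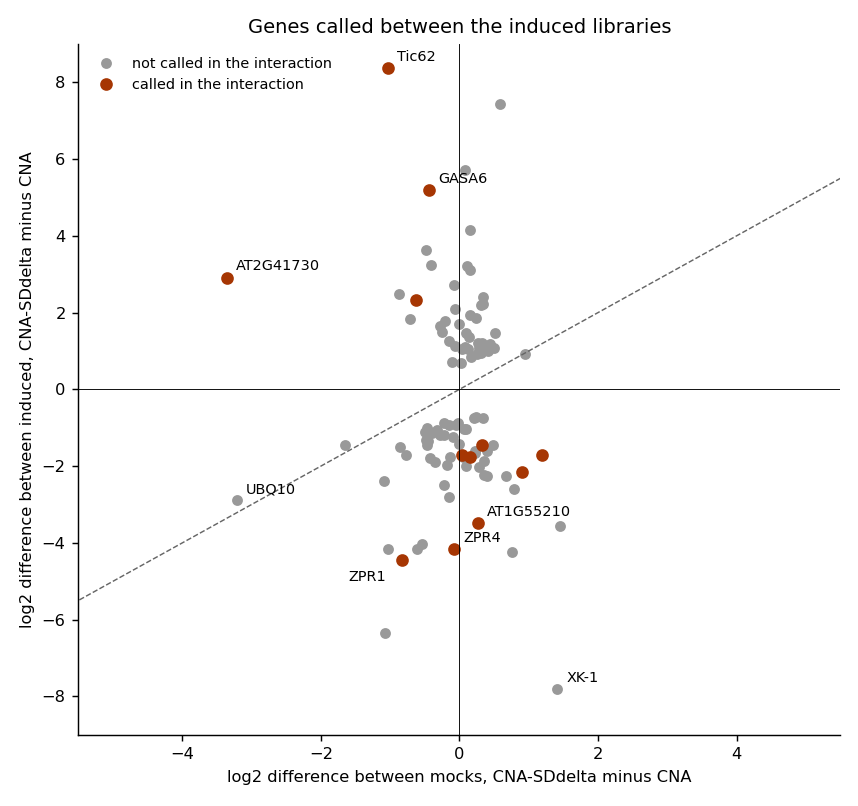
Log2 difference between CNA-SDdelta and CNA mock groups (x axis) and between the induced groups (y axis) for the 104 genes called induced against induced, with 1 point per gene, the 12 called in the interaction in another colour and a dashed line where both are equal; genes with 0 counts in 1 induced group (Tic62 and XK-1 among them) are at fitted values that are no bounds. UBQ10 lies at -3.22 and -2.89, and ZPR1 and ZPR4 lie at -0.82 and -0.08 on the x axis and -4.44 and -4.17 on the y axis.

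Photosynthesis genes made up the largest group. Of 45 photosystem and light-harvesting genes, all tested, 6 were called higher in CNA-SDdelta induced than in CNA induced libraries, which is 6 of 45 against a background of 0.233% called higher. DESeq2 called 12 higher, and the alternatives that kept every library called 6 to 23. None was called lower, 34 of the 45 had an unadjusted p under 0.05, and 44 of 45 differences were positive with a median of 0.64, against 0.03 over all genes tested. In the interaction none of the 45 was called by edgeR or by DESeq2, other alternatives called up to 2, 6 had an unadjusted p under 0.05, and the median was 0.32 against 0.08 over all genes. Between the mocks 42 of 45 were positive with a median of 0.29, and none was called, by edgeR or DESeq2, with 8 at an unadjusted p under 0.05.

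After CNA 38 of 45 were called lower with a median log2 change of -1.28, and after CNA-SDdelta 31 were called lower with a median of -0.80, or 20 without CNA-SDdelta mock replicate 3. None was called higher in either line. Summed over the list, CPM fell from 84060 ± 8413 in CNA mock to between 35589 and 49395 in CNA induced libraries, and from 103669 ± 13819 in CNA-SDdelta mock to between 54946 and 64249 in CNA-SDdelta induced libraries. The induced ranges did not overlap, with CNA-SDdelta the higher. The mock ranges, 74347 to 89049 and 89981 to 117616, also did not overlap and had the same order.

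CAB2, a chlorophyll a/b-binding protein of the light-harvesting antenna of photosystem II, had the largest difference among the 6. It was at 2804, 3920 and 3706 CPM in CNA mock and 173, 299 and 323 CPM in CNA induced libraries, and at 3999, 2538 and 3903 CPM and 861, 576 and 1163 CPM in the CNA-SDdelta groups. Both lines fell without overlap, and the CNA-SDdelta induced libraries were above all CNA induced ones. Induced against induced was 1.71 ± 0.35 (adjusted p = 0.00528) and the interaction 1.71 (adjusted p = 0.196). CAB genes are near-identical copies, so reads could be split among them.

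PSAD-1, a subunit of photosystem I at the ferredoxin side, was at 197, 250 and 223 CPM in CNA induced and 494, 620 and 422 CPM in CNA-SDdelta induced libraries, a log2 difference of 1.2 ± 0.23 (adjusted p = 0.00259). PSAK, another photosystem I subunit, was at 262, 432 and 304 CPM against 795, 699 and 665 CPM, a difference of 1.12 ± 0.22 (adjusted p = 0.00352). Neither gene's induced libraries overlapped between the lines, and their interactions were 0.87 (adjusted p = 0.406) and 1.04 (adjusted p = 0.239). The other 3 were the antenna genes LHCB4.2, LHCB6 and LHCB2.2, at 0.95, 1.09 and 1.00, of which the first 2 overlap other annotated genes. PSAD-1 and PSAK were called in all 12 fits that left out 1 library. CAB2 reached 0.0737 without CNA-SDdelta induced replicate 3, LHCB6 0.0882 without CNA induced replicate 2, LHCB2.2 0.152 without CNA induced replicate 3 and LHCB4.2 0.0528 without CNA induced replicate 1, and the count of 6 ranged from 4 to 8.

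Rubisco and the enzymes of the Calvin cycle fix carbon dioxide in the chloroplast. Of 20 such genes 17 were called lower after CNA (median -1.64) and 12 after CNA-SDdelta (median -0.75), the latter 7 without CNA-SDdelta induced replicate 1 or 2 and 6 without CNA-SDdelta mock replicate 3. Induced against induced, 2 of 20 were called higher by edgeR (1 to 3 with a library left out) and 6 by DESeq2, with up to 9 under the other alternatives, and 15 had an unadjusted p under 0.05, with a median of 0.58, while the mock median was -0.01. All 20 interaction values were positive with a median of 0.63, against 0.08 over all genes; 9 had an unadjusted p under 0.05, and none was called by edgeR or by DESeq2, with up to 2 called under other alternatives. Their summed CPM was between 10732 and 13546 in CNA induced and between 16086 and 18438 in CNA-SDdelta induced libraries, ranges that did not overlap.

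The called genes of this list were HCEF1, a chloroplast fructose-1,6-bisphosphatase, and CP12-2, a small regulator that binds 2 enzymes of the cycle. HCEF1 was at 112, 115 and 82.0 CPM in CNA mock and 16.5 ± 2.3 CPM in CNA induced libraries, and at 118, 74.6 and 74.5 CPM and 45.0, 53.5 and 70.0 CPM in the CNA-SDdelta groups. Mock and induced libraries did not overlap in either line, and the fall was called in the CNA line and not in the other. Induced against induced was 1.78 ± 0.39 (adjusted p = 0.0112) and the interaction 1.99 ± 0.53 (adjusted p = 0.148). CP12-2 had induced values of 50.8, 81.7 and 55.4 CPM and 149, 165 and 120 CPM, a difference of 1.22 ± 0.29 (adjusted p = 0.0269). HCEF1 reached an adjusted p of 0.0877 without CNA-SDdelta induced replicate 3 and CP12-2 0.140 without CNA-SDdelta induced replicate 2. HCEF1 overlaps AT3G54060.

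Of 11 markers of leaf mesophyll, the photosynthetic tissue of the leaf, 8 belong to the photosystem or Calvin cycle lists, so they are no separate measure. The other 3, DRT112, CA1 and GLDP1, were called lower after CNA, at -1.18, -3.74 and -1.66, and after CNA-SDdelta, at -1.14, -2.57 and -1.10, and were not called induced against induced. A list for the chloroplast NDH complex, which carries electrons around photosystem I, had 27 tested genes and is not limited to subunits of the complex. Of the 27, 12 were called lower after CNA (median -1.63), or 6 without CNA mock replicate 2. After CNA-SDdelta 3 were called lower (median -1.10). Neither edgeR nor DESeq2 called any of the 27 induced against induced or in the interaction, where 5 and 1 had an unadjusted p under 0.05.

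**Figure D4:**
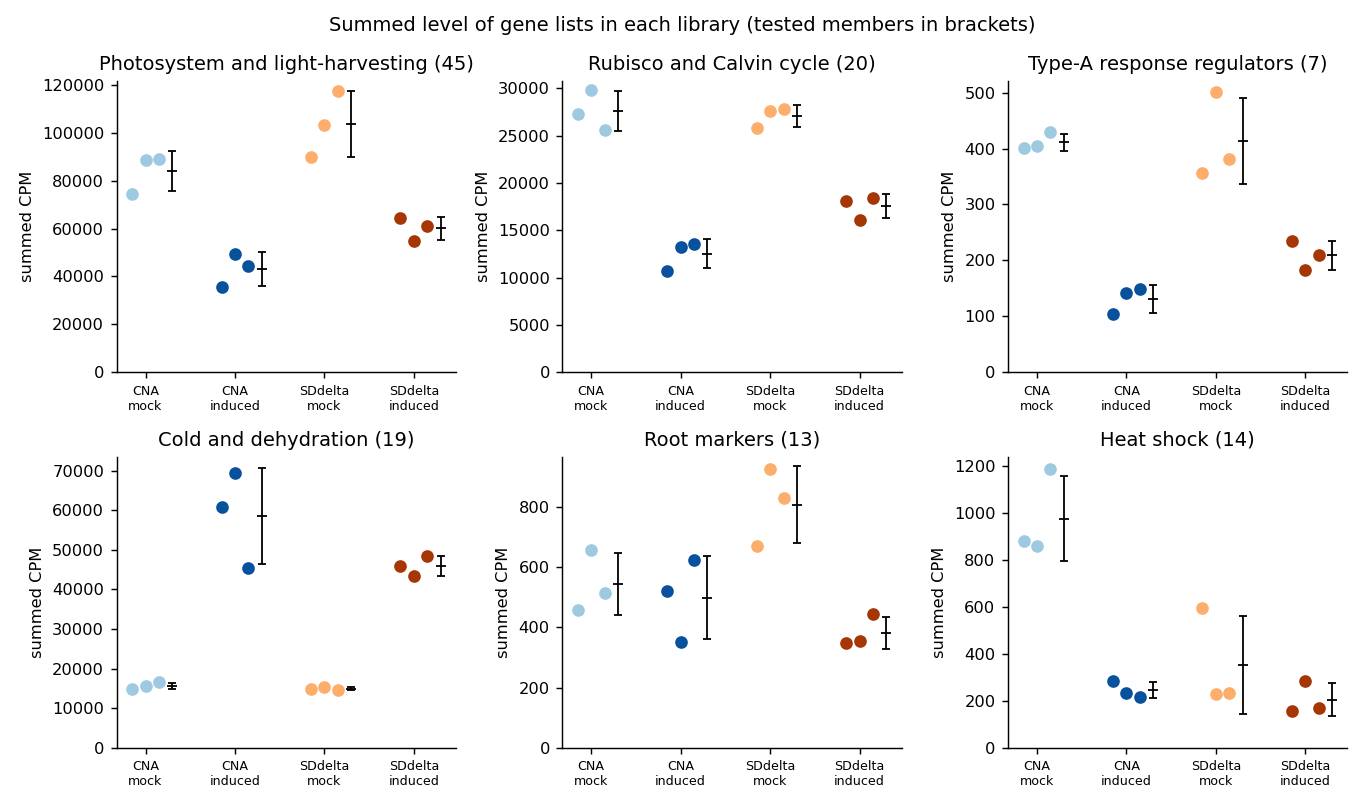
Summed CPM of the genes of each list named in the panels, by group, with 1 point per library and the mean ± SD of 3 beside them. For the photosystem list the CNA induced libraries lie between 35589 and 49395 and the CNA-SDdelta induced libraries between 54946 and 64249.

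Type-A response regulators, which cytokinin induces and which dampen its signalling, were at a lower summed level in CNA induced than in CNA-SDdelta induced libraries. Of the 10 genes 7 were tested. After CNA 5 of the 7 were called lower and after CNA-SDdelta 2 (1 without induced or mock replicate 2 or 3 of that line), with medians of -1.62 and -0.83. Their summed CPM was 103, 142 and 149 in CNA induced and 234, 182 and 210 in CNA-SDdelta induced libraries, from 411 ± 15 and 413 ± 77 in the mocks. The induced libraries did not overlap. Induced against induced, 1 of 7 was called by edgeR and 2 by DESeq2, and in the interaction none was called by either, with 3 at an unadjusted p under 0.05.

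RR5 (ARR5) was at 25.0, 30.1 and 42.7 CPM in CNA mock and 5.56, 11.1 and 5.46 CPM in CNA induced libraries, and between 20.2 and 52.7 CPM in CNA-SDdelta mock and 19.9 and 32.0 CPM in CNA-SDdelta induced libraries. It fell without overlap in the CNA line, and the CNA-SDdelta groups overlapped. Induced against induced was 1.95 ± 0.40 (adjusted p = 0.00528), called in all 12 fits that left out a library, and the interaction was 1.79 (adjusted p = 0.240). ARR6 and ARR7 changed by -3.62 (adjusted p = 2.53e-05) and -3.04 (adjusted p = 0.00542) after CNA and by -0.96 (adjusted p = 0.436) and -0.83 (adjusted p = 0.670) after CNA-SDdelta. ARR9 was called lower in both lines, at -1.23 (adjusted p = 0.000804) and -1.38 (adjusted p = 0.000229), and ARR4 by -1.59 and -0.96, both called.

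Light-signalling B-box factors included a pair with a large difference. Of 27 tested, 11 were called lower after CNA and 6 after CNA-SDdelta (3 without CNA-SDdelta mock replicate 2 or 3), and 2 were called higher induced against induced, BBX14 and BBX15. BBX15 was at 53.9, 50.1 and 46.0 CPM in CNA mock and 9.62, 5.92 and 19.1 CPM in CNA induced libraries, and at 65.4, 54.8 and 66.1 CPM and 41.6, 56.4 and 63.6 CPM in the CNA-SDdelta groups. The CNA induced libraries overlapped no other group. Induced against induced was 2.19 ± 0.41 (adjusted p = 0.00231) and the interaction 1.88 ± 0.56 (adjusted p = 0.240). BBX14 was at 15.9, 8.29 and 2.52 CPM against 28.4, 46.6 and 51.8 CPM in the induced groups, a difference of 2.21 ± 0.45 (adjusted p = 0.00528), and 0.0560 without CNA induced replicate 3. The list's medians were near those of all genes, at -0.05 induced against induced and -0.02 in the interaction.

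Expansins loosen the cell wall during growth, and 23 of 37 were tested. Of these 2 were called higher induced against induced, with a list median of 0.70, and none was without CNA induced replicate 1 or 3 or CNA-SDdelta induced replicate 3. In the interaction none was called by edgeR or DESeq2, 9 had an unadjusted p under 0.05, the median was 1.43, and up to 3 were called under the other alternatives. The mock median was -0.50, and the summed CPM was 661 ± 134 in CNA mock, 449 ± 47 in CNA induced, 480 ± 36 in CNA-SDdelta mock and 630 ± 49 in CNA-SDdelta induced libraries. EXPA1 was at 152, 201 and 102 CPM in CNA mock and 21.5, 31.2 and 23.5 CPM in CNA induced libraries, and at 96.5, 111 and 71.0 CPM and 95.5, 70.8 and 103 CPM in the CNA-SDdelta groups. Its fall in the CNA line was without overlap and the CNA-SDdelta groups overlapped, with induced against induced at 1.84 ± 0.44 (adjusted p = 0.0259) and an interaction of 2.54 ± 0.60 that narrowly missed the threshold (adjusted p = 0.0609). Without CNA-SDdelta induced replicate 3 the induced difference had an adjusted p of 0.109.

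EXPA8 was at 0.601, 9.87 and 1.26 CPM in CNA induced and 22.7, 18.3 and 23.7 CPM in CNA-SDdelta induced libraries, a difference of 2.73 ± 0.61 (adjusted p = 0.0149, and 0.132 without CNA induced replicate 1). XTH4, a xyloglucan-remodelling enzyme gene, was at 98.0, 158 and 191 CPM against 203, 337 and 385 CPM, a difference of 1.05 ± 0.25 (adjusted p = 0.0238, and 0.186 without CNA-SDdelta induced replicate 3). In both genes the induced groups did not overlap. The expansin-like gene EXLA1 went the other way and rose in both lines, by 4.57 (adjusted p = 2.09e-12) after CNA and 3.06 (adjusted p = 7.04e-08) after CNA-SDdelta. EXPA10 was called higher after CNA-SDdelta, at 2.46 (adjusted p = 0.0233), and had -0.19 after CNA, with an uncalled interaction of 2.64 (adjusted p = 0.384).

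Other list genes called induced against induced were UGT78D2, a flavonoid glucosyltransferase gene, at 1.27 (adjusted p = 0.0314), ABF4, an abscisic acid bZIP factor gene, at -0.86 (adjusted p = 0.0478) and BGLU22, a root β-glucosidase gene, at -2.59 (adjusted p = 0.0266). ABF4 lost its call whichever of the 12 libraries was left out, with an adjusted p of up to 0.317 (without CNA-SDdelta induced replicate 1). UGT78D2 reached 0.228 without CNA induced replicate 2 and BGLU22 0.213 without CNA-SDdelta induced replicate 2. BGLU22 was at 42.7, 23.7 and 17.0 CPM in CNA induced and 7.71, 2.05 and 3.99 CPM in CNA-SDdelta induced libraries, which did not overlap.

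BGLU22 is 1 of 18 root markers, of which 13 were tested. After CNA-SDdelta 3 of the 13 were called lower (BGLU22, DR4 and PYK10), or 1 without CNA-SDdelta induced replicate 2 or 3. After CNA 1 was called lower (BGLU21). Over all genes the shares called lower were 2.09% after CNA-SDdelta and 3.96% after CNA. The 13 had medians of -2.19 after CNA-SDdelta and -0.49 after CNA. Their summed CPM was 459, 657 and 515 in CNA mock, 521, 350 and 624 in CNA induced, 808 ± 129 in CNA-SDdelta mock and 349, 354 and 443 in CNA-SDdelta induced libraries. Mock and induced libraries overlapped in the CNA line and did not in the CNA-SDdelta line, and the induced libraries of the lines overlapped. PYK10 alone had mean CPM of 434, 397, 666 and 312 in these groups in that order, so the sum mostly follows 1 gene. The medians rest partly on genes near the floor, such as EXPA18 and RHS19. These were at 0.745 and 0.677 CPM in CNA-SDdelta mock and at 0 after induction. None of the 13 was called in the interaction by edgeR, 3 had an unadjusted p under 0.05, and DESeq2 called 1 lower. The part of root RNA in the values of BGLU22 was not tested. For other marker lists, mean summed CPM in the CNA mock, CNA induced, CNA-SDdelta mock and CNA-SDdelta induced groups was 299, 288, 277 and 337 for phloem, 308, 307, 356 and 379 for Casparian strip and endodermis, and 67.0, 31.6, 95.8 and 44.3 for secondary wall xylem.

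Outside the lists and apart from UBQ10, described above, the genes with the largest differences were low in 1 of the induced groups. Among those higher after CNA-SDdelta, RGF9, a root growth factor peptide gene, was at 55.9, 65.5 and 44.8 CPM in CNA mock and 5.41, 0 and 3.15 CPM in CNA induced libraries, and at 58.4, 48.9 and 72.5 CPM and 28.9, 19.5 and 40.0 CPM in the CNA-SDdelta groups, a difference of 3.23 ± 0.71 between the induced groups (adjusted p = 0.0121). AT5G48490 was at 0.601, 2.76 and 1.68 CPM in CNA induced and 17.5, 5.33 and 17.8 CPM in CNA-SDdelta induced libraries (3.24 ± 0.70, adjusted p = 0.0103; interaction 3.64, adjusted p = 0.0609), from means of 144 and 109 CPM in the mocks. In both the induced groups did not overlap, but this was a condition for picking the genes named here, together with a minimum count level. Of the called genes 43 of the 44 higher and 58 of the 60 lower met these conditions. BAT1, a brassinosteroid acyltransferase gene, AT1G68238 and EDL1 were higher by 4.15, 3.62 and 3.12 (adjusted p = 0.0295, 0.0372 and 0.0284). AT4G00165 was at 0 counts in all 3 CNA induced libraries and at least 3.95-fold higher in CNA-SDdelta induced libraries. EMB2654 was at 0.150, 0 and 0 CPM in CNA induced and 0.151, 8.21 and 5.12 CPM in CNA-SDdelta induced libraries, groups whose lowest and highest values nearly met (adjusted p = 0.0295).

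Among those lower after CNA-SDdelta, MSRB9, a methionine sulfoxide reductase gene, was at 8.48, 10.7 and 1.14 CPM in CNA mock and 29.2, 73.8 and 21.8 CPM in CNA induced libraries, and at 1.90, 1.76 and 6.85 CPM and 2.72, 2.26 and 1.94 CPM in the CNA-SDdelta groups. Its CNA induced libraries overlapped no other group, and the difference was -4.16 ± 0.80 (adjusted p = 0.00279). UGT76B1, a glucosyltransferase gene, was at 63.4, 43.0 and 47.4 CPM against 11.3, 2.26 and 8.39 CPM (-2.80 ± 0.67, adjusted p = 0.0259). AT4G11290 was at a mean of 27.5 CPM in CNA induced and 1.40 CPM in CNA-SDdelta induced libraries, and AT1G56710 at 25.7, 7.5 and 14.9 CPM against 0.151, 0.410 and 1.94 CPM, with adjusted p of 0.0112 and 0.0103. AT1G56710 was at or below 0.219 CPM, under the floor of 3 counts, in the CNA mock libraries, and overlaps AT1G56700. AT1G19960 had a difference of -3.55 (adjusted p = 0.0346), and XK-1 was at 0 counts in all CNA-SDdelta induced libraries, with CNA induced at least 8.5-fold higher.

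Of the 12 genes in the 2 preceding groups other than MSRB9, each lost its call without at least 1 library. The highest adjusted p was 0.0859 for RGF9 (without CNA induced replicate 2), 0.103 for AT5G48490 (CNA induced replicate 1), 0.117 for AT4G00165 (CNA induced replicate 1), 0.121 for EDL1, 0.149 for BAT1, 0.154 for EMB2654 and 0.370 for AT1G68238 (each CNA-SDdelta induced replicate 2). It was 0.128 for AT4G11290 and AT1G56710, 0.217 for UGT76B1 and 0.246 for AT1G19960 (each CNA-SDdelta induced replicate 2), and 0.206 for XK-1 (CNA-SDdelta induced replicate 3).

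Of the cold and dehydration genes, which encode protective proteins of stressed cells, 14 of 19 were called higher after CNA (median 2.31) and 15 after CNA-SDdelta (median 2.68), with all 19 changes positive in each line. LTI78 rose by 4.11 (adjusted p = 1.93e-15) and 4.14 (adjusted p = 1.60e-15), KIN1 by 3.73 and 3.65, and COR47 by 2.31 and 2.68. Induced against induced, edgeR called none of the 19, with 6 at an unadjusted p under 0.05 and 1 called in each direction by DESeq2, and COR15B was the single gene called in the interaction. RAB18, a dehydrin gene, rose by 2.24 (adjusted p = 1.16e-05) after CNA and had 0.73 (adjusted p = 0.314) after CNA-SDdelta, with an interaction of -1.51 that was not called (adjusted p = 0.337).

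KCS genes encode the enzymes that elongate very-long-chain fatty acids for wax and other lipids, and 7 of 15 were called higher after CNA and 9 after CNA-SDdelta, with medians of 0.84 and 1.05. Without CNA-SDdelta mock replicate 3 the count of 9 was 5. KCS1 rose by 1.86 (adjusted p = 7.61e-09) and 2.21 (adjusted p = 1.29e-10), and KCS6 by 0.84 in each. Of 17 wax and cuticle genes 7 were called higher in each line (4 after CNA-SDdelta without its mock replicate 1 or 3 or its induced replicate 3), among them CER3 at 1.57 (adjusted p = 5.96e-05) and 1.43 (adjusted p = 0.000390). MYB96, a regulator of wax genes, rose by 1.65 (adjusted p = 6.99e-05) after CNA and had 0.57 (adjusted p = 0.369) after CNA-SDdelta, with an uncalled interaction of -1.09 (adjusted p = 0.449). None of either list was called in the interaction by edgeR or DESeq2.

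Jasmonate is a wound and defence hormone that also controls its own synthesis genes. Of 17 tested genes 3 were called higher and 1 lower after CNA (median 1.34), and none higher and 1 lower after CNA-SDdelta (median 0.30). Over all genes 4.05% were called higher and 3.96% lower after CNA, and 2.71% and 2.09% after CNA-SDdelta. The 1 gene called lower in each line is near what those shares give. JAZ1, a repressor of the jasmonate response that jasmonate induces, was called after CNA at 2.82 (adjusted p = 0.000415) and had 1.72 (adjusted p = 0.0624) after CNA-SDdelta. The synthesis genes OPR3 and AOC1 were called at 2.31 (adjusted p = 0.0230) and 2.20 (adjusted p = 0.0199) after CNA and had 0.30 and 0.26 after CNA-SDdelta. In the interaction edgeR and DESeq2 called none of the 17, 5 had an unadjusted p under 0.05, and the median was -1.10.

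**Figure D5:**
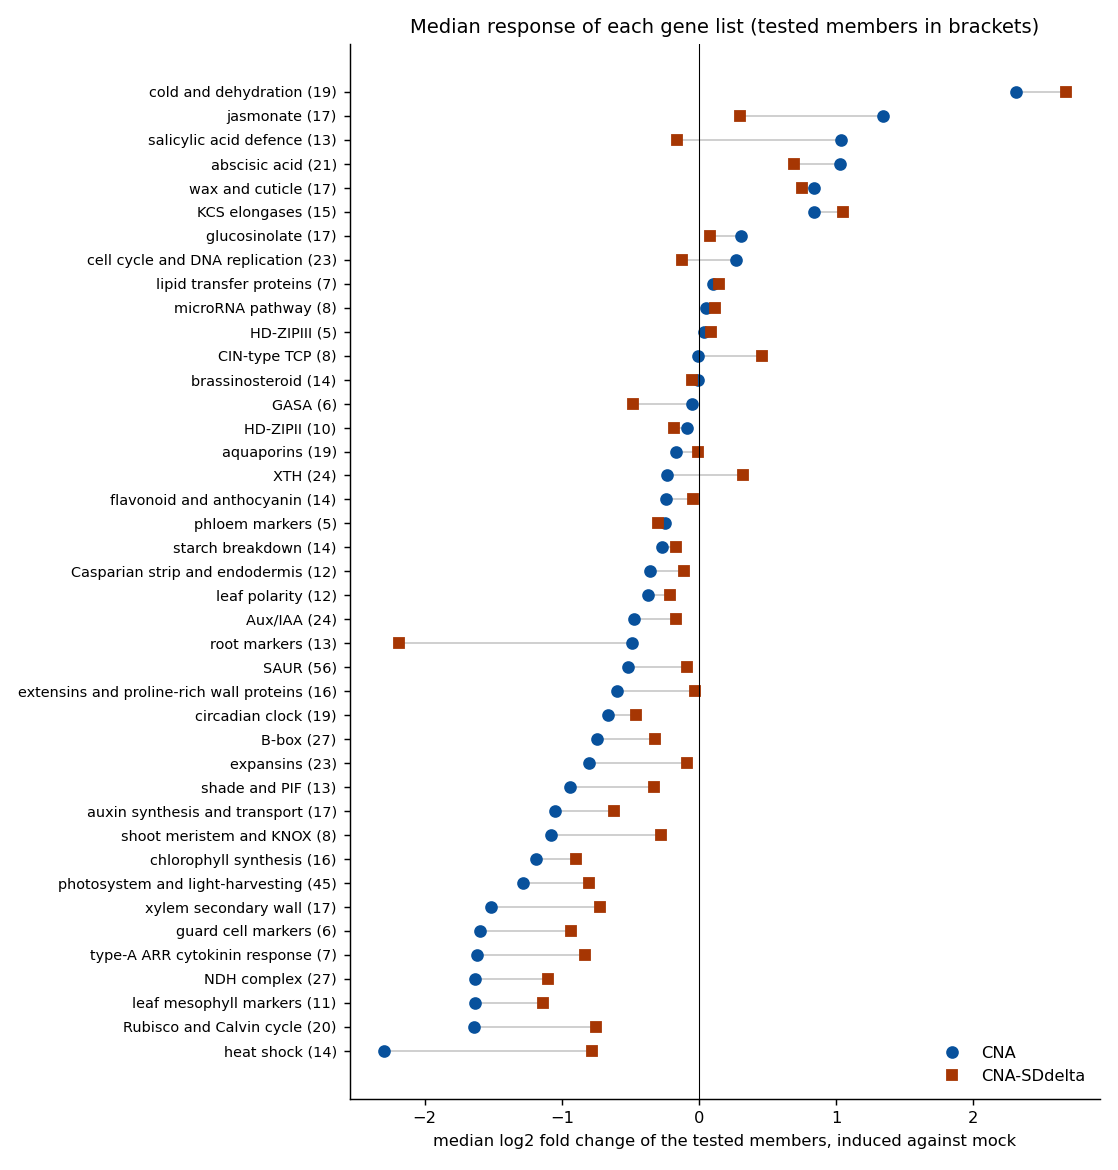
Median log2 change (induced minus mock, x axis) after CNA (circles) and after CNA-SDdelta (squares) for 41 gene lists with at least 5 tested genes, 1 row per list, sorted by the CNA median. Both medians were below 0 in 28 lists and above 0 in 9. Of the 30 lists with a CNA median below 0, 25 had a lower median after CNA than after CNA-SDdelta. Those 30 were picked by the same CNA median and lists share genes, so the count is no test. Medians over all genes tested were -0.08 after CNA and -0.03 after CNA-SDdelta.

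The size of the whole response was set side by side in genes chosen in another line, PHB, which shares no library with these 4 groups. The 840 genes called higher after induction of PHB had a median log2 change of 1.00 after CNA and 0.84 after CNA-SDdelta, and the median interaction was -0.11. The genes called lower after PHB had medians of -0.89 and -0.62 and a median interaction of 0.33, against 0.08 over all genes tested. Genes called after PHB-SDdelta, which also shares no library, had medians of 1.15 and 0.98 where higher and -0.85 and -0.64 where lower, with median interactions of -0.10 and 0.27. Of the PHB-higher genes 775 had a positive change after CNA and 735 after CNA-SDdelta. These values are descriptions, and no test of them was made.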

How the data were processed

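Members, lists and tests were chosen with earlier results of these data known. Each library's deposited file holds raw gene counts made by the authors; per the file headers the reads were mapped with STAR, and the submitters' processing notes also name Trimmomatic, featureCounts, DESeq2 and TAIR10. Versions, annotation and strand setting are not given in the sources used here. The labels call the 3 samples per group biological replicates; whether they came from separate plates is not stated.

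CPM and all tests were computed here from the deposited counts. edgeR 4.0.16 (R 4.3.3, limma 3.58.1) was fitted on all 48 libraries in 16 groups with filterByExpr, TMM and quasi-likelihood tests, 1 mean per group; 18909 genes were tested, and p-values were adjusted per comparison over all of them. The fit was also run on simulated counts with changes set in well-counted genes only, so that run does not cover genes near the floor. Alternatives were DESeq2 1.42.0, other filters and scaling, 12 libraries alone, a replicate block, thinning to 2812517 counts, GC correction over the last 500 exonic bases, and leaving out each library. Named genes are those called in the interaction or between mocks, HD-ZIPIII and ZPR genes, and examples from the lists. List genes called induced against induced were named too. Top genes by fold in that comparison were picked among called genes whose induced libraries did not overlap. Overlaps and names come from RefSeq TAIR10.1, which held 28009 of 28496 identifiers. Same-numbered replicates did not deviate together. No replicate pair agreed within sampling noise. Floors cover counting error only. A further promoter sequence is not reported here.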

Additional observations from a re-analysis of the deposited data

Results flagged for a closer look

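A total of 20 genes responded differently to CNA-SDdelta than to CNA by the interaction test, with edgeR's adjusted p under 0.05. The interaction also takes in standing differences between the mocks. For 4 of the 20 (AT2G41730, cpHsc70-2, CAX1 and GLYI4) the mock difference was larger in absolute value than the induced difference. JAL34 and GLYI4 each had a mock difference of 0.74, opposite in sign to the interaction and not called (adjusted p = 0.235 and 0.215). The response was lower in the CNA-SDdelta line, in log2 units, for ZPR1 (-3.61), ZPR4 (-4.09), PCR2 (-1.75), NADP-ME2 (-1.80), GLP9 (-3.07), AT1G55210 (-3.74), AT4G07820 (-4.71), AT4G30670 (-2.89), NRT1.1 (-1.77), LCR68 (-1.92), JAL34 (-1.50) and GLYI4 (-1.23). It was higher for AT2G41730 (6.27), GASA6 (5.62), cpHsc70-2 (3.23), CAX1 (1.73), COR15B (2.89), AT5G07020 (2.97), pEARLI4 (1.77) and Tic62 (9.41, a fitted value against libraries at 0 counts and no bound).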

How the results depend on the processing

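The interaction called 20 genes. It called 62 with DESeq2's Wald test, 99 with no filter on low counts, 37 with the 12 libraries alone and 36 with a replicate block across them; with a replicate block within each line it called 17. Leaving out 1 library gave 7 (without CNA-SDdelta mock replicate 3) to 29, with 10 without CNA mock replicate 2, CNA-SDdelta induced replicate 2 or CNA-SDdelta mock replicate 2, and 13 without CNA mock replicate 3. Induced against induced, the 104 calls became 290, 266, 180, 184 and, with thinned counts, 173, and leaving out 1 library gave 44 (without CNA-SDdelta induced replicate 2) to 120, with 67 and 48 without replicates 1 and 3 of that group. The split of the 104 was 44 higher and 60 lower, against 155 and 135 with DESeq2 and 165 and 101 with no filter. Mock against mock called 10, or 35, 56 and 22 with DESeq2, no filter and the replicate block, and 1 (without CNA mock replicate 1 or CNA-SDdelta mock replicate 3) to 29 (without CNA-SDdelta mock replicate 1). CNA induction gave 1078 to 1506 and CNA-SDdelta induction 557 (without CNA-SDdelta mock replicate 3) to 975 with 1 library left out.

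Same-numbered replicates correlated between -0.018 and 0.061, so the numbers were not taken as pairs; the within-line replicate block could not be fitted for contrasts between lines. Of the 20 interaction genes 10 were called under all settings that kept every library. Signs that reversed were all of uncalled changes. PHV after CNA-SDdelta was -0.03 with DESeq2 size factors, -0.03 with its Wald test and -0.02 with no filter. PHB after CNA was -0.02 with no filter and -0.14 with the within-line block, and ZPR3 after CNA-SDdelta was -0.12 with that block and -0.20 thinned. With 1 library left out, induced against induced ranged from -0.16 to 0.79 for PHB, -1.26 to 0.11 for HB-8, -7.20 to 0.00 for EXT6, -0.02 to 0.29 for RABG3B and -0.16 to 0.02 for UBQ11. After CNA-SDdelta it ranged from -0.39 to 0.41 for PHV, -0.96 to 0.22 for HB-8, -0.34 to 0.76 for REV, -1.08 to 0.01 for ZPR4 and -0.87 to 0.89 for ZPR3. PHB after CNA ranged from -0.49 to 0.46, and the interaction from -0.75 to 0.05 for PHV and -0.13 to 1.24 for HB-8. Of 5798 values for 283 single-gene and list results, 5073 were the same. For a gene this meant the same direction and side of the threshold. For a list it meant a count of called members within a set ratio of the main count. A further 367 list counts moved beyond that ratio. Among gene values 305 lost a call, 247 of them with a library left out, 23 gained a call and 30 reversed. The cause of these changes was not tested.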
